A study of Mus musculus with 18 samples.

Results

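The outer dense fibre and fibrous sheath genes were examined in whole testis of Taf7l knock-in and wild-type mice. The 10 genes were chosen by their symbols in the deposited mRNA table. That rule used no measured value, but earlier results of these data were known when the genes were chosen. They are Odf1, Odf2, Odf3, Odf4, Smcp, Akap3, Akap4, Fscb, Ropn1 and Ropn1l. Each symbol matched 1 of the 22298 genes of that table. Each of the 10 was also among the 15787 genes that passed the filter on low counts. RNA was sequenced as stranded total RNA from frozen testes of adult C57BL/6 mice. There were 3 libraries from mice with a knock-in allele of Taf7l and 3 from mice with the wild-type gene, and no other allele or agent is named in the labels. The labels do not say which codon the knock-in changes, or which libraries come from separate animals. The p-values therefore rest on differences among libraries that could be technical. Samples of pachytene spermatocytes and round spermatids of both genotypes belong to the series and were not analysed here.

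The tail of a mammalian sperm is built around an axoneme of microtubules. Outer dense fibres accompany the axonemal doublets as stiff, cysteine-rich cables. In the midpiece a helical sheath of mitochondria surrounds the fibres, and in the principal piece a fibrous sheath of columns and ribs takes its place. The fibrous sheath also anchors protein kinase A and glycolytic enzymes. The genes for these parts are transcribed in spermatids, largely before the nucleus condenses, and the messages are stored for later translation. Taf7l, the X-linked gene altered in the knock-in mice, encodes a germ-cell relative of the TFIID subunit Taf7.

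The 6 libraries held between 17431309 and 21446420 counts of mRNA genes. Taf7l itself had 472, 525 and 581 counts in knock-in testes, against 507, 551 and 531 in wild-type testes. Relative to library size these were 26.0, 27.2 and 27.3 CPM in the knock-in and 27.7, 29.1 and 30.2 CPM in the wild type. Every knock-in library was thus below every wild-type library, and the log2 fold change of -0.11 did not pass (edgeR, adjusted p = 0.632). A knock-in need not alter the amount of its transcript, so these values do not check the labels. Elongating spermatid genes took 1.15% to 1.33% of the counts in knock-in and 1.12% to 1.29% in wild-type libraries, so germ-cell transcripts of testis were abundant in all 6. Epididymal genes took 0.00171% to 0.00344% of the counts in knock-in and 0.00172% to 0.00433% in wild-type libraries, and 2 of the 10 on that list were at 0 in every library. In whole testis, fewer cells of a type and less RNA per cell cannot be told apart.

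Smcp and Odf3 rose in the knock-in, by 32.2% and 28.5%, and none of the 10 genes fell past the threshold. Smcp encodes a cysteine-rich protein of the mitochondrial sheath, and Odf3 a protein of the sperm tail with the repeats of the Shippo family. The other 8 genes did not pass. Among them were the principal fibre genes Odf1 and Odf2, both kinase anchors of the fibrous sheath, Akap3 and Akap4, and the ropporins. Calls used edgeR's quasi-likelihood test, with p-values adjusted over all tested genes and a threshold of 0.05. By that rule 0.88% of tested genes were called higher in the knock-in and 0.101% lower. The 10 genes held 2 calls higher and 0 lower. At an unadjusted p under 0.05 there were 3 higher and 0 lower, against 12.9% of tested genes in either direction. The fitted log2 fold changes were above 0 for 5 genes and below 0 for 5, with a median of 0.02, where the median over all tested genes was 0.00.

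**Figure D1:**
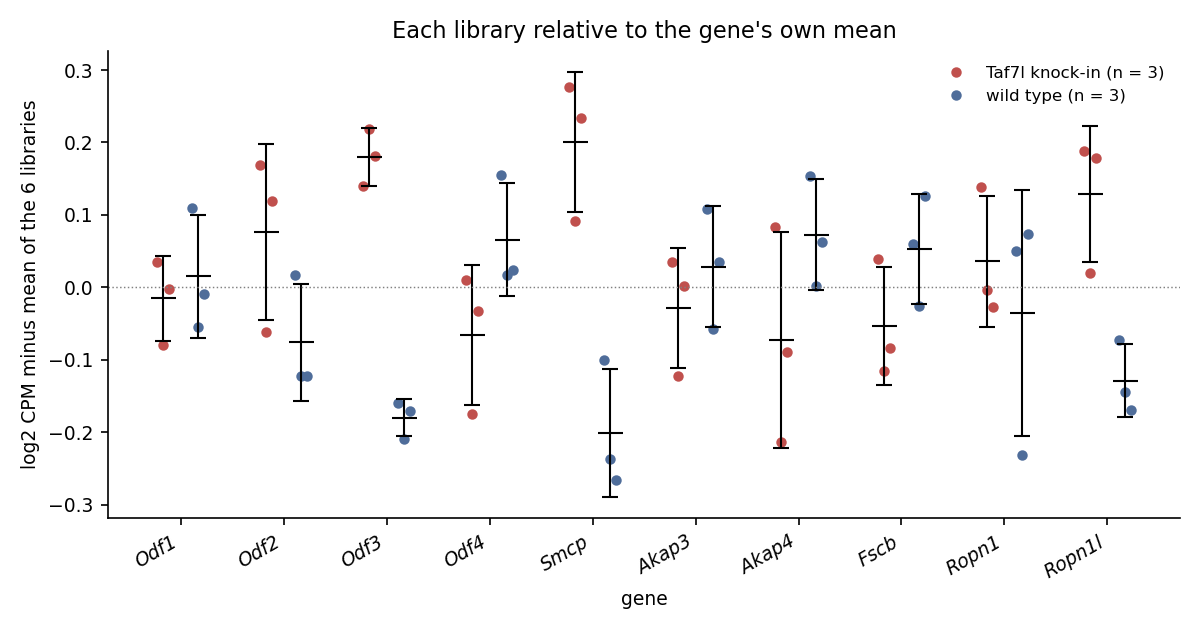
Log2 CPM (count relative to the library total, TMM-scaled) of each gene in each library minus the gene's mean over the 6 libraries. Points are libraries, bars are the mean ± SD of 3 knock-in (left) and 3 wild-type (right) libraries. For Odf3, Smcp and Ropn1l every knock-in library lies above every wild-type library.

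The promoters of Smcp, Odf3 and Ropn1l are shown because these 3 genes had every knock-in library above every wild-type library. They were thus picked by their values. Each sequence is the 250 bases before the RefSeq transcription start, on the coding strand, in GRCm38.p6, the assembly that mm10 represents. Capitals mark matches to the letters searched. Smcp lies on the minus strand, and its window is chr3:92589074-92589323. Odf3 lies on the plus strand with the window chr7:140847666-140847915. Ropn1l lies on the minus strand with the window chr15:31453690-31453939.
Smcp: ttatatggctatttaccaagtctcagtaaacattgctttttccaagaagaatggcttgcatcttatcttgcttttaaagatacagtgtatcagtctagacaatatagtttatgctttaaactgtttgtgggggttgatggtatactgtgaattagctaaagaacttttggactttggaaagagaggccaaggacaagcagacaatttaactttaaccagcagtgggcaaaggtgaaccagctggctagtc
Odf3: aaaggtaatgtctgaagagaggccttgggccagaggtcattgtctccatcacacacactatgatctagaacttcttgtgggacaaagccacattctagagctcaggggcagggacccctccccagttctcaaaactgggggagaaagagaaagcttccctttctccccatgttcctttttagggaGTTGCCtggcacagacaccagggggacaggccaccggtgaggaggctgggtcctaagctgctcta
Ropn1l: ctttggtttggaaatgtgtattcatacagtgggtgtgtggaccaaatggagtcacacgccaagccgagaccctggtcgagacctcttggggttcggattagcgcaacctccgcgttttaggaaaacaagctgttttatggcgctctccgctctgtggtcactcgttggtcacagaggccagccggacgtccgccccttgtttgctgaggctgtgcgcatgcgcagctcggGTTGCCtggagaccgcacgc

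The letters searched, on both strands, were TATAAA of the TATA box, TGACGTCA of the full CRE that CREM binds in spermatids, the shorter form TGACG of that site, the CCAAT box, and, as the letters of a part of the X-box that RFX factors bind, GTTGCC. The search covered the 250 bases before each start. TGACG also lies within the full CRE. The RefSeq table held 13 promoters for 9 of the 10 genes. GTTGCC was found at 60 to 65 bases before the start of Odf3 and at 15 to 20 bases before the start of Ropn1l. That is 2 of the 13 promoters, where 10.4% of 32841 promoters of the same length held it. The window of Smcp held none of the letters searched. Neither did that of Odf4, for which every knock-in library lay below every wild-type library. Of the 9 genes, 0 had TATAAA (12.4% of all promoters) and 0 the full CRE (1.55%). TGACG was found for 1 gene, Odf2, in 2 of the 13 promoters, which overlap each other (17.8% of all promoters). CCAAT was found for 4 genes, Odf2, Akap3, Akap4 and Fscb, in 5 of the 13 promoters (33.9% of all promoters). These matches describe letters in a window and are not binding sites.

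The order of the levels was set by the authors' FPKM, a fragment count scaled by transcript length and library size, which allows genes to be compared per length. Odf2, which forms fibres and also serves in centrosomes, was highest at 1796 ± 121 FPKM in knock-in and 1616 ± 64.3 FPKM in wild-type libraries (SD, n = 3 each). Odf1, the cysteine-rich core protein of the fibres, followed at 1094 ± 18.7 FPKM in knock-in and 1125 ± 37.8 FPKM in wild-type libraries. Odf3 was lowest at 69.5 ± 3.47 FPKM in knock-in and 54.3 ± 0.763 FPKM in wild-type libraries. The highest gene stood 25.8-fold above the lowest in knock-in and 29.8-fold in wild-type libraries. The order of the 10 genes was the same in both genotypes, namely Odf2, Odf1, Akap4, Smcp, Ropn1l, Akap3, Odf4, Ropn1, Fscb and Odf3. In wild-type libraries no range of a gene overlapped that of the next. In knock-in libraries Akap4 (775 to 911 FPKM) and Smcp (737 to 801 FPKM) overlapped, as did Odf4 (172 to 185 FPKM) and Ropn1 (167 to 185 FPKM). Within each knock-in library Akap4 was nonetheless above Smcp, at 911 against 801, 775 against 737 and 818 against 787 FPKM. Odf4 and Ropn1 had no fixed order within the knock-in libraries and did not differ beyond their spread.

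**Figure D2:**
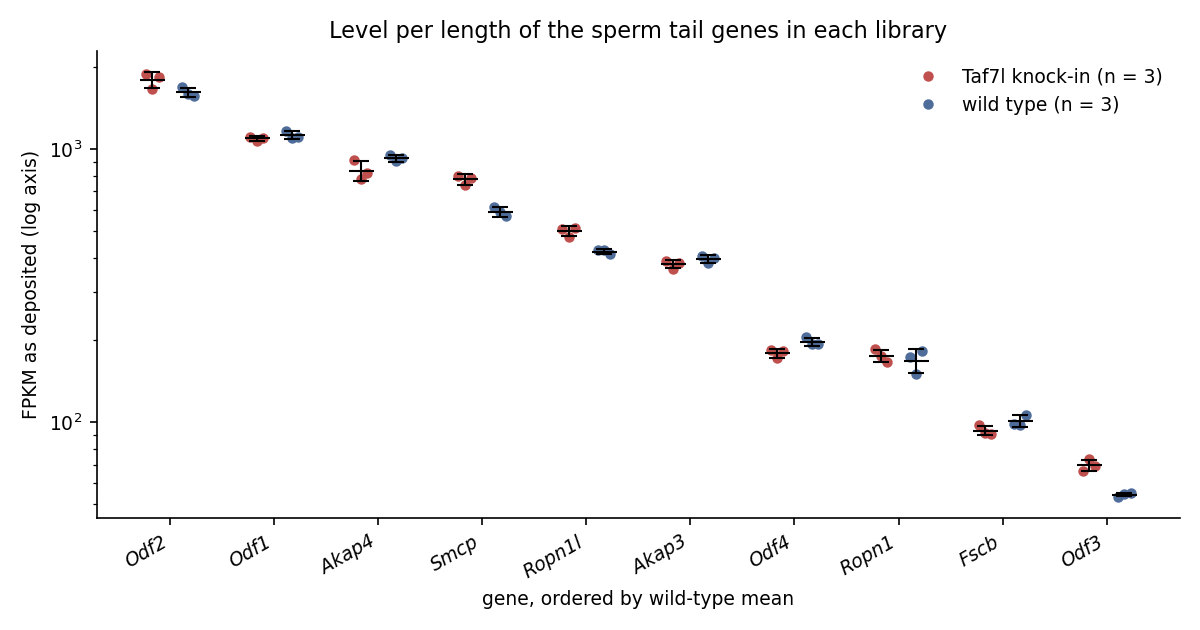
FPKM as deposited, on a log axis, of the 10 genes ordered by their wild-type mean. Points are libraries and bars the mean ± SD of 3 knock-in (left) and 3 wild-type (right) libraries, with the levels running from Odf2 near 1796 and 1616 FPKM down to Odf3 at 69.5 and 54.3 FPKM.

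Of the outer dense fibre genes, Odf3 (ENSMUSG00000025482, chromosome 7 from 140847916 to 140850925) had 99.0, 105 and 102 CPM in the knock-in libraries. It had 80.3, 77.7 and 79.7 CPM in the wild-type libraries. CPM is the count relative to the library total after TMM scaling. The genotypes did not overlap, and libraries of one genotype lay close together. On the log2 scale Odf3 rose by 0.36 ± 0.06 (SE; 95% interval 0.23 to 0.49; edgeR, adjusted p = 0.0217).

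Odf2 (ENSMUSG00000026790, chromosome 2 from 29889014 to 29931746) had 4250, 3622 and 4105 CPM in the knock-in and 3822, 3471 and 3472 CPM in the wild-type libraries, so that knock-in library 2 fell below wild-type library 1. Its log2 fold change was 0.15 ± 0.08 (edgeR, adjusted p = 0.437). Odf1 (ENSMUSG00000061923, chromosome 15 from 38219203 to 38226735) had 1623, 1500 and 1582 CPM in the knock-in and 1710, 1525 and 1575 CPM in the wild-type libraries. The ranges of Odf1 overlapped, and its log2 fold change of -0.03 had a 95% interval from -0.17 to 0.11. Odf4, named for the same fibres (ENSMUSG00000032921, chromosome 11 from 68921835 to 68927081), had 255, 224 and 247 CPM in the knock-in and 282, 256 and 257 CPM in the wild-type libraries. Every knock-in library lay below every wild-type library, with 255 CPM in the highest knock-in and 256 CPM in the lowest wild-type library. The log2 fold change of Odf4 was -0.13 ± 0.07 and did not pass (edgeR, adjusted p = 0.462).

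In the mitochondrial sheath, Smcp (ENSMUSG00000074435, chromosome 3 from 92583866 to 92589073) had 911, 802 and 884 CPM in the knock-in and 701, 638 and 626 CPM in the wild-type libraries. The lowest knock-in library stood clear of the highest wild-type library. Smcp rose by 0.40 ± 0.07 on the log2 scale (95% interval 0.25 to 0.56; edgeR, adjusted p = 0.0307). Without knock-in library 2, the lowest of the knock-in libraries, the change was 0.45 (adjusted p = 0.0192). The RefSeq annotation places the noncoding gene Gm35639 over the whole 5208 bases of Smcp, and how the authors used strand in counting is not given, so reads of the pair cannot be told apart.

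Most of these calls ended when 1 library was left out. The call of Smcp was lost when any library other than knock-in library 2 was left out, that is knock-in library 1 (adjusted p = 0.0846), knock-in library 3 (0.179) or wild-type library 1 (0.0574), 2 (0.132) or 3 (0.162). That of Odf3 was lost without knock-in library 3 (adjusted p = 0.127) or wild-type library 1 (0.0643), 2 (0.106) or 3 (0.107), and held without knock-in library 1 (0.0404) or 2 (0.0451). The fold changes themselves ran from 0.36 to 0.45 on the log2 scale for Smcp and from 0.34 to 0.38 for Odf3 across these fits.

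Of the fibrous sheath genes, Akap4, the major anchor protein of the sheath (ENSMUSG00000050089, chromosome X from 7067515 to 7078609), had 3422, 2786 and 3037 CPM in the knock-in and 3594, 3233 and 3375 CPM in the wild-type libraries. Knock-in library 1 lay within the wild-type range and the other two below it. The log2 fold change was -0.14 ± 0.08 (edgeR, adjusted p = 0.522). Akap3, the anchor protein to which Akap4 binds (ENSMUSG00000030344, chromosome 6 from 126853098 to 126874308), had 1617, 1450 and 1581 CPM in the knock-in and 1702, 1518 and 1617 CPM in the wild-type libraries. These ranges overlapped, and the interval of its log2 fold change reached from -0.21 to 0.09 about -0.06. Fscb, which binds the calcium-regulated sheath protein Cabyr (ENSMUSG00000043060, chromosome 12 from 64471333 to 64474898), had 433, 389 and 398 CPM in the knock-in and 439, 414 and 460 CPM in the wild-type libraries. The ranges overlapped, with a log2 fold change of -0.11 ± 0.06 (edgeR, adjusted p = 0.544). All 3 sheath genes thus had fitted values below 0 that did not pass the test.

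The ropporins bind the anchor proteins through a domain like that of the kinase's regulatory subunit. Ropn1l (ENSMUSG00000022236, chromosome 15 from 31441210 to 31453689) had 648, 577 and 644 CPM in the knock-in and 541, 515 and 506 CPM in the wild-type libraries. The genotypes did not overlap, and the log2 fold change was 0.26 ± 0.06 without passing (edgeR, adjusted p = 0.101). It was past the threshold without knock-in library 2 (0.31, edgeR, adjusted p = 0.0438) and in DESeq2 (0.25, adjusted p = 0.0175). Of the 6 fits that left out 1 library, only 1 called it, and the adjusted p reached 0.441 without knock-in library 3. Of the 13 fits to all libraries, 3 called it. With the trend over transcript length removed it did not pass (0.19, edgeR, adjusted p = 0.253). The authors' deposited table lists Ropn1l at an adjusted p of 0.0109, beside Smcp at 9.72e-06 and Odf3 at 0.000211, and none of the other 7 genes under 0.05. The authors list 1.62% of genes as higher at that threshold and 0.381% as lower. RefSeq places the pseudogene Gm6361 over 1175 bases of Ropn1l and the noncoding gene Gm49208 over 19 bases. Ropn1 (ENSMUSG00000022832, chromosome 16 from 34649832 to 34678610) had 214, 194 and 191 CPM in the knock-in and 201, 165 and 204 CPM in the wild-type libraries. Its ranges overlapped widely, and it stood at 0.07 on the log2 scale (95% interval -0.12 to 0.26).

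**Figure D3:**
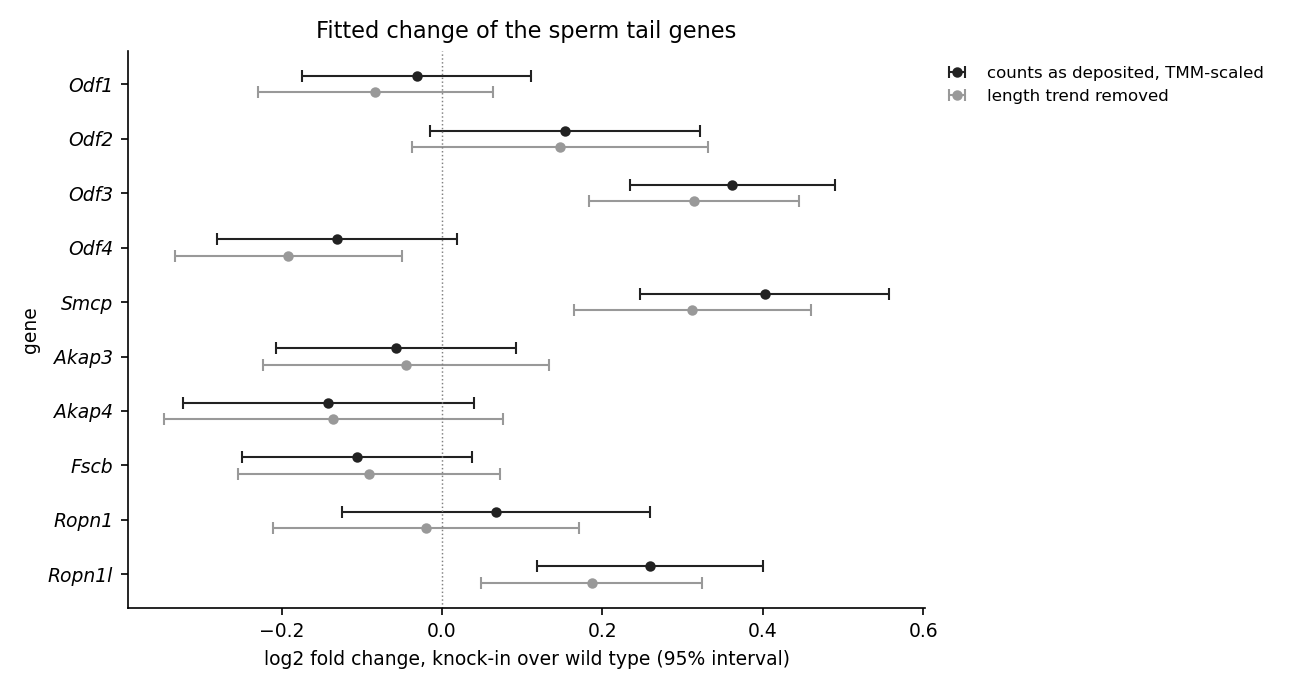
Log2 fold change, knock-in over wild type, of the 10 genes with its 95% interval from edgeR, from the counts as deposited (black) and with the trend over transcript length removed (grey). Smcp moves from 0.40 to 0.31, Odf3 from 0.36 to 0.31 and Ropn1l from 0.26 to 0.19.

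Of the 10 genes, 4 had libraries of the genotypes that did not overlap, 3 higher and 1 lower in the knock-in, where this held for 18.5% of all tested genes (10.1% higher and 8.41% lower). Libraries also differed within a genotype in a way most of the 10 genes shared. Knock-in library 1 was the highest of its genotype for 9 of the 10 genes and knock-in library 2 the lowest for 8. Wild-type library 1 was the highest of its genotype for 8. How often such an order held over all tested genes was not counted, so it is not shown to be particular to these genes. In all, the 10 genes took 1.26% ± 0.0625 of the mRNA counts in knock-in and 1.24% ± 0.0351 in wild-type libraries (SD, n = 3 each). This share of counts differed by less than the spread between libraries. Summed per length, the 10 genes reached 6149, 5600 and 5946 FPKM in the knock-in and 5786, 5484 and 5518 FPKM in the wild-type libraries. The means of 5898 ± 278 FPKM in knock-in and 5596 ± 166 FPKM in wild-type libraries lay further apart than either SD, while the ranges overlapped, and the sum was not tested.

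When each gene was taken as a share of the summed FPKM of the 10 genes in its own library, the shared swings between libraries dropped out. Smcp made up 13.0%, 13.2% and 13.2% of the sum in the knock-in and 10.6%, 10.7% and 10.3% in the wild-type libraries. Akap4 made up 14.8%, 13.8% and 13.8% in the knock-in and 16.5%, 16.4% and 16.8% in the wild-type libraries. Odf4 made up 3.04% ± 0.0351 in the knock-in and 3.52% ± 0.0210 in the wild-type libraries (SD, n = 3 each). Shares of the genotypes did not overlap for 9 of the 10 genes, with Odf2, Odf3, Smcp and Ropn1l higher and Odf1, Odf4, Akap3, Akap4 and Fscb lower in the knock-in, and Ropn1 overlapping. Set against the same sum, 20.2% of all tested genes did not overlap. The 10 genes are parts of that sum and share its swings, while nearly all other tested genes are not parts of it. The 20.2% is therefore not a like comparison for the 10 genes. Shares of a fixed sum are not independent, since a larger share of one gene lowers those of the others, and no test was made of them.

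Transcript length was set beside these values, and its relation to them within the 10 genes was not tested. The length implied by count and FPKM was 1113 bp for Smcp, 1132 bp for Ropn1, 1238 bp for Ropn1l, 1346 bp for Odf4, 1429 bp for Odf1 and 1462 bp for Odf3, against a median of 3050 bp over all tested genes. The 3 genes with all knock-in libraries above the wild type were among these 6, and so were Odf1, Odf4 and Ropn1. Odf2 (2218 bp), Akap4 (3677 bp), Akap3 (4071 bp) and Fscb (4346 bp) were longer. Over all genes, 74 of the 139 called higher lay in the shortest 10% of tested genes. Smcp, at length percentile 6.90, was inside that group, and Odf3, at 14.0, was outside it. With the trend over length removed, the log2 fold change was 0.31 for Smcp (edgeR, adjusted p = 0.0880) and 0.31 for Odf3 (adjusted p = 0.0573), and 0 of the 10 genes were called, while 67 genes were called higher in all. Ropn1 was then at -0.02 and Odf4 at -0.19 (adjusted p = 0.253).

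Genes of the structures next to these fibres and sheaths were taken from 5 lists of 67 genes in the mRNA table, of which 66 were tested. None was called by edgeR, where 10 of the 66 were higher and 3 lower at an unadjusted p under 0.05, against 12.9% of all tested genes in either direction. By DESeq2 there were 3 calls higher, namely Spa17, Septin4 and Ccdc42, among 319 genes called higher and 74 lower in all. Abundance within a list was ranked by FPKM in the wild type. Values of the 66 genes ran from -0.25 to 0.41 on the log2 scale with a median of 0.00. In the outer dense fibre list (9 tested, median 0.07) the most abundant were Oaz3, an antizyme of haploid germ cells (log2 0.01 ± 0.07 SE), and Ccdc136 (0.13 ± 0.06). In the fibrous sheath list (18 tested, median -0.01) they were Gapdhs, the glycolytic enzyme bound to the sheath (0.06 ± 0.07), and Tcp11 (0.02 ± 0.06). In the mitochondrial sheath list (20 tested, median -0.05) they were Gpx4, the selenoprotein of the mitochondrial capsule (0.00 ± 0.07), and Vdac2, a channel of the outer mitochondrial membrane (-0.13 ± 0.06). In the annulus list (7 tested, median -0.06) they were the septin gene Septin12 (0.24 ± 0.06, edgeR, adjusted p = 0.101) and the anion transporter gene Slc26a8 (-0.06 ± 0.06). In the list of head-tail coupling (12 tested, median 0.05) they were Spata6 (0.04 ± 0.07) and Rimbp3 (-0.08 ± 0.06).

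**Figure D4:**
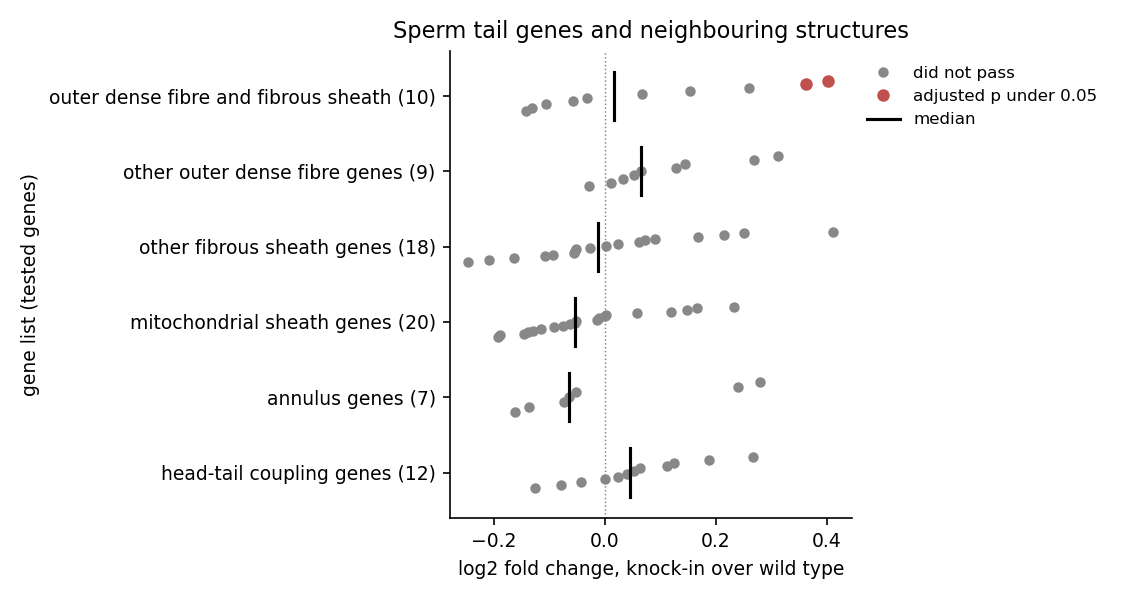
Log2 fold change, knock-in over wild type, of each tested gene in the outer dense fibre and fibrous sheath set and in 5 lists of neighbouring structures. Each point is a gene, red where its adjusted p was under 0.05 and grey otherwise, and the black line is the list's median. Smcp at 0.40 and Odf3 at 0.36 are the 2 red points.

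Chosen after their values were seen, Spa17, a sheath protein with the same anchor-binding domain as the ropporins, and Septin4 and Ccdc42 had the values nearest to a call. Spa17 averaged 96.9 CPM in the knock-in and 72.8 CPM in the wild type (log2 0.41 ± 0.08, edgeR, adjusted p = 0.0589). Septin4, of the ring that closes the midpiece, had a log2 fold change of 0.28 ± 0.06 (adjusted p = 0.0619), and Ccdc42 had 0.27 ± 0.06 (adjusted p = 0.0764). For each of the 3 genes every knock-in library lay above every wild-type library, which held for 10.1% of all tested genes. Genes picked for values near a call would tend to separate in this way, so it adds no evidence. With the length trend removed the values were 0.28 for Spa17, 0.28 for Septin4 and 0.25 for Ccdc42.

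Markers of the cells in the testis moved as follows beside these values. Elongating spermatid genes held 2 calls higher of 15 tested, Prm2 (log2 0.53 ± 0.09, adjusted p = 0.0289) and H2bl1 (0.69 ± 0.12, adjusted p = 0.0301), with a median log2 fold change of 0.09. Of the 15, 13 were above 0 and 2 below. The most abundant, the protamine gene Prm1, was one of the 2 at -0.31 ± 0.12 (edgeR, adjusted p = 0.303), while the transition protein genes Tnp1 and Tnp2 had 0.53 ± 0.12 (adjusted p = 0.0859) and 0.39 ± 0.12 (adjusted p = 0.202). Round spermatid genes held 1 call higher of 16, Spaca4 (0.39 ± 0.06, adjusted p = 0.0260), with a median of 0.04, and Tssk2, the most abundant, had -0.04 ± 0.08. With the length trend removed, none of these 3 was called (edgeR, adjusted p from 0.0914 to 0.142). Meiotic prophase genes (16 tested, median -0.05) and spermatogonial genes (11 tested, median -0.00) held none, and their most abundant genes were Syce1 at -0.06 ± 0.07 and Dmrtb1 at 0.17 ± 0.07. Among somatic cells, Sertoli genes had a median of 0.03 over 12, Leydig genes 0.12 over 9, macrophage and leukocyte genes 0.04 over 10 and peritubular myoid genes 0.37 over 9, with no gene called. The most abundant by FPKM were Clu (0.12 ± 0.10) of the Sertoli list, Insl3 (0.03 ± 0.09) of the Leydig list, Lyz2 (-0.14 ± 0.16) of the macrophage list and Actg2 (0.04 ± 0.06) of the myoid list. Actg2 had the lowest value of the myoid list. Of the 9 myoid genes 9 were above 0 and 0 below, with values from 0.04 to 0.57. Of the epididymal list 3 genes were tested and none was called. Their median was -0.32, with Wfdc10 at 0.47 ± 0.15 (edgeR, adjusted p = 0.203), Rnase10 at -0.51 ± 0.15 (adjusted p = 0.176) and Cuzd1 at -0.32 ± 0.54 (adjusted p = 0.866). Myoid genes took 0.0600% to 0.0643% of the counts in knock-in and 0.0557% to 0.0592% in wild-type libraries. Actg2 held the largest part of this share, at 362 CPM in the knock-in and 351 CPM in the wild type. Acta2 followed at 108 CPM in the knock-in and 96.2 CPM in the wild type, so the size of the share mainly reflects Actg2. Its difference between the genotypes does not rest mainly on Actg2, since Acta2 differed by more CPM. So did Myh11, at 63.5 CPM in the knock-in and 48.8 CPM in the wild type. The part of cell makeup in the values of Smcp and Odf3 was not tested.

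For each gene that was called, the 3 tested genes with the nearest profile over the 6 libraries were found by the root mean square difference of log2 CPM, each centred on its mean. Nearest to Smcp were Cetn1, a centrin of sperm centrioles (difference 0.027), Rsph1 of the radial spokes (0.031) and Cdiptos (0.032). Nearest to Odf3 were Brd7 (0.029), Pa2g4 (0.033) and Ly6k (0.034). A gene chosen for a like profile shares the difference between genotypes by construction, so the calls among these 6 are a description only. Cetn1, Rsph1, Cdiptos and Pa2g4 were called higher, and Brd7 (edgeR, adjusted p = 0.0850) and Ly6k (adjusted p = 0.0619) were not.

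Other RNA of the same genes was found in the noncoding and circular RNA tables. The noncoding table held 6 transcripts with a symbol of these genes, 5 of Odf2 and 1 of Ropn1, and all 6 were tested. None was called, where 0.0538% of noncoding transcripts were called higher and 0.043% lower, and 1 of the 6 had an unadjusted p under 0.05. That was ENSMUST00000152932 of Odf2, with 1192, 997 and 950 CPM in the knock-in and 738, 817 and 665 CPM in the wild-type libraries, relative to the noncoding counts. The genotypes did not overlap, and its log2 fold change was 0.50 ± 0.11 (edgeR, adjusted p = 0.184). DESeq2 called it (adjusted p = 0.00422), and the authors' deposited table lists it at an adjusted p of 0.00794, where 0.203% of noncoding transcripts are higher at an adjusted p under 0.05 and 0.138% lower. The other Odf2 transcripts ran from -0.25 to 0.33 on the log2 scale. The lowest, ENSMUST00000150827, did not overlap in the other direction, with every knock-in library below every wild-type library. Its values were 74.8, 82.9 and 99.3 CPM in knock-in and 99.6, 101 and 106 CPM in wild-type libraries. It did not pass (edgeR, adjusted p = 0.695). How many of all noncoding transcripts did not overlap was not counted. The most abundant by FPKM, ENSMUST00000129960, had 116 ± 12.1 FPKM in the knock-in and 109 ± 16.2 FPKM in the wild type (SD, n = 3 each). Isoforms of one gene share exons, and the treatment of reads that fall in several of them is unknown, so the value of a single transcript is uncertain. The Ropn1 transcript ENSMUST00000231612 had 40 counts over the knock-in and 49 over the wild-type libraries.

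**Figure D5:**
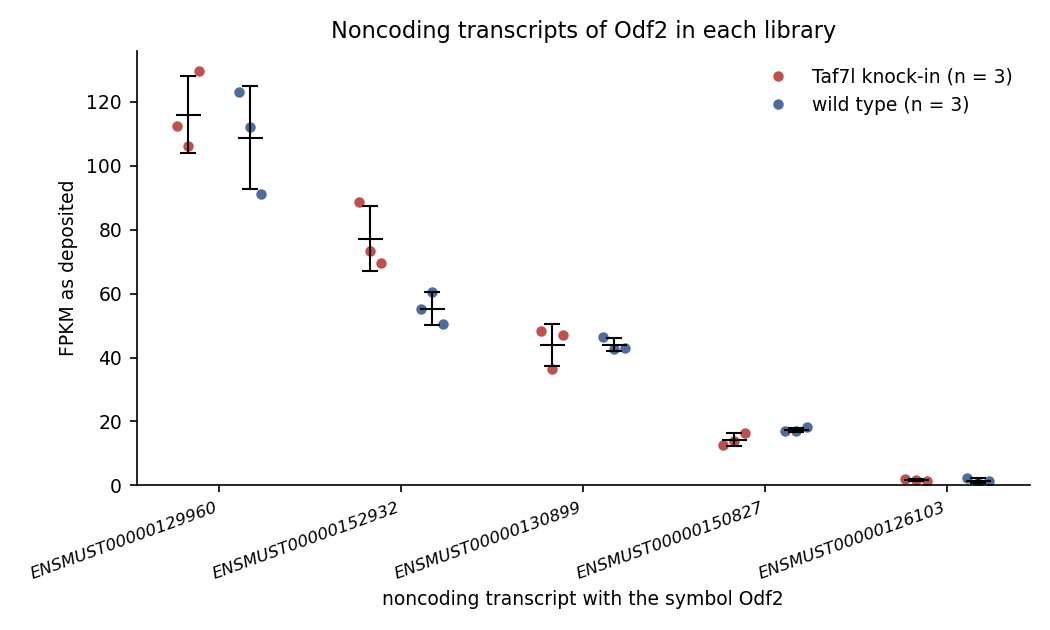
FPKM as deposited of the 5 noncoding transcripts with the symbol Odf2. Points are libraries and bars the mean ± SD of 3 knock-in (left) and 3 wild-type (right) libraries, and ENSMUST00000152932 averages 77.2 FPKM in the knock-in and 55.3 FPKM in the wild type.

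The circular RNA table held 4 circles from these genes, all at low counts. An Odf2 circle on chromosome 2 from 29901077 to 29904107 had 6 counts over the knock-in and 0 over the wild-type libraries, 5 of the 6 in knock-in library 1. A Ropn1 circle on chromosome 16 from 34669897 to 34677311 had 3 knock-in and 2 wild-type counts. The Akap3 circles on chromosome 6 had 4 knock-in and 1 wild-type counts for the one from 126856054 to 126866858, and 2 knock-in and 7 wild-type counts for the one from 126865466 to 126865665. Only the Akap3 circles were above 0 in at least 3 libraries and were tested, and 0 were called by edgeR or DESeq2, with 0 at an unadjusted p under 0.05 and 0% of all 3887 tested circles called. No difference in these circles was detectable at this depth.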

How the data were processed

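Whole-testis RNA of 3 knock-in and 3 wild-type libraries was analysed. Per the file headers, the authors deposited counts and FPKM per gene and per noncoding transcript, and counts and RPM per circle. Their mean columns (FPKM, or for circles a signal in which 0 is replaced by a small number), log2 ratio, p-value and adjusted p-value are also deposited. Per the submitters' processing notes, coordinates refer to mm10. No label or header used here names the aligner, the annotation, the strand setting or the authors' test. Genotypes were compared with edgeR 4.0.16 (R 4.3.3) on the deposited counts, by TMM scaling, filterByExpr (minimum count 10, minimum total 15; circles above 0 in at least 3 libraries) and the two-sided quasi-likelihood test with Benjamini-Hochberg adjustment over all features of a table. The methods were tested on simulated data. The common biological coefficient of variation of genes was 11.1%. No library repeated another of its genotype, since the chi-square per degree of freedom between such libraries was 5.54 to 10.8. Libraries of different genotypes were not compared in this way. These values do not show whether libraries come from separate animals. The SE was the log2 fold change divided by the root of the F statistic. Alternatives were DESeq2 1.42.0, limma 3.58.1 on log2(FPKM + 1 or 0.1), other scalings and filters, a length correction by loess, a replicate block and leaving out each library. Members and lists were chosen with earlier results of these data known. All members were named, with the called genes of each list, the most abundant genes not called, and the 3 genes nearest in profile to each called member. Coordinates and promoters are from RefSeq (GRCm38.p6).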

Additional observations from a re-analysis of the deposited data

How the results depend on the processing

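Against 139 genes called higher and 16 lower, with 2 of the members higher and 0 lower, the alternatives gave the following. Library totals alone gave 37 genes lower, 2 neighbouring genes higher (0 in the analysis reported) and a call of Ropn1l (log2 0.25, adjusted p = 0.0273). DESeq2 gave 319 higher, 74 lower, 3 neighbouring genes and Ropn1l (0.25). limma on log2(FPKM + 1) gave 2 higher, 0 lower and 0 members (Odf3 0.35, Smcp 0.39), and with a pseudocount of 0.1 likewise 2, 0 and 0 (Odf3 0.36, Smcp 0.39). limma with a mean-variance trend, added after the data were seen, gave 211 higher, 52 lower, 3 members, 3 neighbouring genes and Ropn1l (0.25). With the length trend removed 67 genes were higher and 0 members were called (Odf3 0.31, Smcp 0.31), and Ropn1 turned to -0.020. Length removal with the replicate block gave 87 higher, 29 lower and 1 member, Smcp (Odf3 0.31, Ropn1 -0.016). RLE or upper-quartile scaling and both count filters changed no call of a member. The noncoding call of ENSMUST00000152932 appeared in DESeq2 (1 transcript) and without a filter (1 transcript, log2 0.50).

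Leaving out 1 library at a time gave 8 to 117 genes higher, 2 to 20 lower, 0 to 3 members higher and 0 to 1 neighbouring genes higher. The log2 fold changes then ran from 0.34 to 0.38 for Odf3, 0.36 to 0.45 for Smcp, 0.23 to 0.31 for Ropn1l, -0.066 to 0.013 for Odf1, -0.23 to -0.074 for Akap4, -0.099 to -0.012 for Akap3, -0.17 to -0.078 for Odf4, -0.16 to -0.069 for Fscb, 0.10 to 0.22 for Odf2 and -0.024 to 0.12 for Ropn1. They ran from -0.040 to 0.13 for ENSMUST00000130899, -0.0047 to 0.21 for ENSMUST00000129960, 0.026 to 0.87 for ENSMUST00000126103 and -2.24 to 0.20 for the shorter Akap3 circle. The member median ran from -0.05 to 0.06. Each of these fits also had fewer libraries, and the cause of these changes was not tested.

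Same-numbered libraries deviated together in 2 pairs (correlations 0.28 and 0.26 across 9508 genes) and not in the third (-0.05). Knock-in library 3 correlated best with wild-type library 1 (0.12). Deviations were taken from the mean of each genotype, so these correlations are not independent. Whether the numbers pair the samples could not be decided from them. The replicate block gave 156 genes higher and 22 lower, 2 members higher and 0 lower, with 0 calls of a member changed. Circles held 14381 to 20127 counts per library, which limits what they can show.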

Other observations

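Annotation in the deposited mRNA table, used after the data were seen, gave 4 tested genes beside the members under the GO component outer dense fiber and 10 under sperm fibrous sheath. Of the first, Rsph1 rose, at 526 CPM in the knock-in and 410 CPM in the wild type (log2 0.36 ± 0.07 SE; edgeR, adjusted p = 0.0415), and was at 0.32 with the length trend removed (adjusted p = 0.0829). Ak1, an adenylate kinase, had 0.19 ± 0.08 (adjusted p = 0.346). Of the sheath genes none was called. Their median was 0.06, with Gstm5, a glutathione transferase, at 0.03 ± 0.07, the lactate dehydrogenase gene Ldha at -0.07 ± 0.07 and Pgk2, the testis phosphoglycerate kinase, at -0.09 ± 0.08.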
